A study of Mus musculus with 9 samples.

Results

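The genes described here are 34 mouse genes of mitosis, the stage of the cell cycle in which a cell separates its copied chromosomes and divides. They were chosen by name, and a member was every probe set (a group of short oligonucleotides on the array that together measure a transcript) whose only gene symbol in the platform's gene table was one of the 34. This gave 74 of the 45101 probe sets of the Affymetrix Mouse430_2 array, for 33 of the 18193 genes that have such a probe set. Ccnb1, the remaining listed gene, was not analysed here because the gene table used lists no probe set under its symbol alone. Total RNA came from 3 kinds of mouse tissue, each measured on 3 arrays: normal thymus, thymus tumor, and thymus tumor that the labels call resistant to XIST. XIST is the long non-coding RNA that silences an X chromosome in female cells. The labels give no strain, age, sex, genotype or transgene for any group. They also leave unsaid if each array is an animal of its own, so the p-values below cover only array-to-array spread, some or all of which may be technical.

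Most of these genes work in a short part of the cell cycle, from the G2 phase to the end of cell division. Cyclin-dependent kinase 1 with its A and B cyclins starts mitosis, the Aurora and Polo kinases build the spindle, kinetochore proteins attach chromosomes to it, and the anaphase-promoting complex ends mitosis by having cyclins and other proteins degraded. Their transcription rises late in the cell cycle, and because resting cells make little of them, their transcripts are widely used as markers of proliferating tissue. The thymus of a young mouse is such a tissue, since its immature T cells pass through rapid rounds of division before they mature.

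Late cell cycle promoters are known for a pair of short elements close to the transcription start: the cell cycle genes homology region (CHR), read by a complex that contains MuvB proteins, and the CCAAT box, read by NF-Y. Windows of 300 bases, from 250 before to 50 after the start annotated by RefSeq on GRCm38.p6, were at hand for 28 of the 34 genes, as 29 windows. The CHR was searched as TTTGAA and its reverse complement TTCAAA, and the CCAAT box as CCAAT and ATTGG. A CHR match and a CCAAT match can share a letter at their ends. The last 100 bases before the start are shown for 7 genes, with every match in capitals. Cdk1, Cdc20, Ube2c, Kif11 and Top2a are shown because they hold both elements there, and Mybl2 and Melk because they hold neither and were the members with the largest increases in both tumor groups. The windows are chr10:69352913-69353012 on the minus strand for Cdk1, chr4:118437344-118437443 on the minus strand for Cdc20, chr2:164769829-164769928 on the plus strand for Ube2c, chr19:37376282-37376381 on the plus strand for Kif11, chr11:99024190-99024289 on the minus strand for Top2a, chr2:163054535-163054634 on the plus strand for Mybl2 and chr4:44300817-44300916 on the plus strand for Melk. All are written 5′ to 3′ along the gene.
Cdk1: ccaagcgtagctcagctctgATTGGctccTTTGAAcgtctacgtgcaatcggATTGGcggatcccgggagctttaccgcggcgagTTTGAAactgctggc
Cdc20: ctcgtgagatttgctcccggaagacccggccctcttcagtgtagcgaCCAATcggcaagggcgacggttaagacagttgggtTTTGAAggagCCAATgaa
Ube2c: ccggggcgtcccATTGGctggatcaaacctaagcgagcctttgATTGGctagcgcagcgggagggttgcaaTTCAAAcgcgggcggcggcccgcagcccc
Kif11: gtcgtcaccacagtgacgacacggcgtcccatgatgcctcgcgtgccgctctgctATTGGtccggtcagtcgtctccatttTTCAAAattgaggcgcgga
Top2a: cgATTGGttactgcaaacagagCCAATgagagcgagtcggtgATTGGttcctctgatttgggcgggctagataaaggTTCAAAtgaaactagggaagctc
Mybl2: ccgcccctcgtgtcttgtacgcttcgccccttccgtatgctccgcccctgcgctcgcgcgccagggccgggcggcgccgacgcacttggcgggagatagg
Melk: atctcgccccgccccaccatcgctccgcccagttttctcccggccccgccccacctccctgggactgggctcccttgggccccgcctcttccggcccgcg

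The CHR letters were found in 19 of the 29 windows (65.5%), against 17.9% of all 32851 mouse windows and 11.8% of the windows of genes tested below. The CCAAT letters were found in 21 of the 29 (72.4%), against 37.4% of all windows. Both stood together in 17 windows (58.6%), against 6.95% of all windows. In Cdk1 the CHR letters began 71 and 15 bases before the start, in Cdc20 18 bases before it and in Kif11 19 bases before it. Nuf2, Nusap1, Mybl2, Melk, Mad2l1 and Birc5 had neither set of letters in their windows. Of these, Mybl2 and Melk were higher in tumor than in normal thymus. The estimates of Nusap1, Mad2l1, Nuf2 and Birc5 were below 0 there (log2 differences -0.50, -0.46, -0.43 and -0.19). A link between the letters and the direction of change was not tested. Among 95 windows of other mitotic genes 47.4% held the CHR letters, and among 30 windows of DNA replication genes 10% did. The CCAAT letters were found in 65.3% and 56.7% of the windows of these lists, and both elements in 34.7% and 6.67%. A match of letters is a description of the window and shows no binding.

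**Figure D1:**
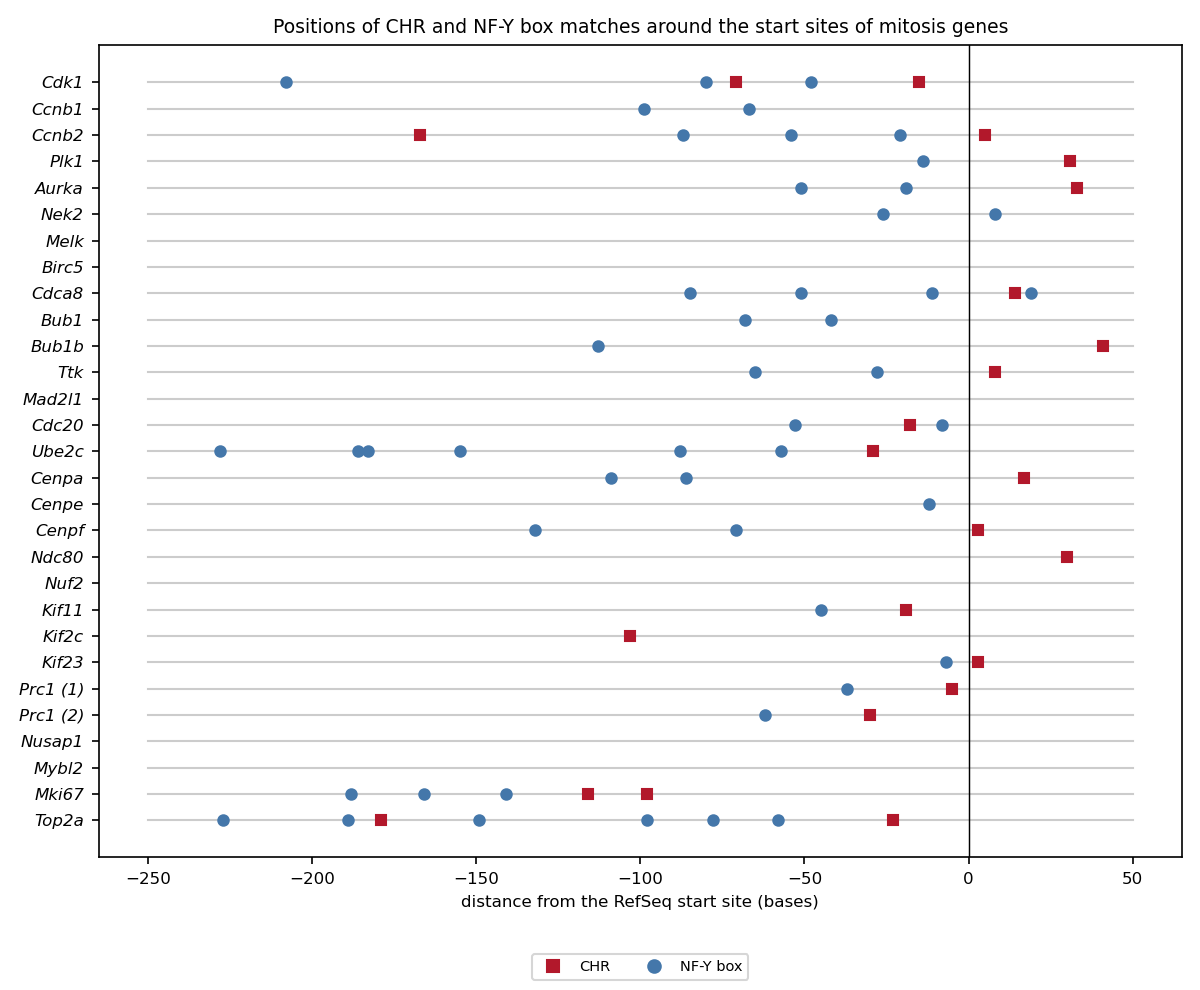
Positions of the CHR (red squares) and of the CCAAT box read by NF-Y (blue circles, "NF-Y box") in the 29 promoter windows of 28 mitosis genes; the horizontal axis is the distance in bases of the first letter of a match from the RefSeq start site, and each row is a window. Of the 29 windows, 19 held the CHR letters and 21 the CCAAT letters, mostly within the last 100 bases before the start or just after it.

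The values are MAS5 signals, linear intensities in arbitrary units, whose trimmed mean was 100.03 on every array. The array medians ranged from 13.9 to 25.8. The arrays fell into 2 sets by their poly-A spike-in controls, RNAs added in the laboratory: the mean spike-in signal was 2.01 to 2.95 on normal thymus 1, tumor 1, and resistant tumor 1 and 2, and 141 to 237 on the other 5 arrays. Each set held all 3 groups. Tests were run on log2 of the signal for 11671 genes, each represented by its brightest probe set, in a limma model of all 9 arrays. A gene was called when its p-value, adjusted by the Benjamini-Hochberg method over all 11671 genes, was under 0.05. All 33 members passed the filter on dim probe sets, and each of their representative probe sets reached the array median on all 9 arrays.

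Markers of the cell types that a thymus can hold differed between the groups. In normal thymus each of 11 thymocyte and 10 thymic epithelial markers reached the array median on at least 1 array, while 2 and 6 of them in tumor and 2 and 5 in resistant tumor did so on none. Of the 11 thymocyte markers, 1 was called higher (Ptcra) and 6 lower in tumor than in normal thymus, Cd4, Cd8a and Cd8b1 among the lower, and their summed signal was 21970 to 24734 in normal thymus, 16914 to 17962 in tumor and 15472 to 18353 in resistant tumor. All 10 thymic epithelial markers were called lower in tumor and 9 of 10 in resistant tumor, and their sum was 8219 to 8971, 736 to 1282 and 1269 to 1385 in the same order. The sum of 8 fibroblast and stromal markers was 1144 to 1236, 2560 to 5795 and 3261 to 7505, that of 6 endothelial markers 318 to 337, 434 to 630 and 463 to 765, and that of 3 B cell markers 178 to 183, 10.6 to 44.4 and 29.0 to 43.2. Of the 8 fibroblast and stromal markers, 4 were called higher and 0 lower in tumor, and 5 higher and 1 lower in resistant tumor. Of the 6 endothelial markers, 4 were called higher and 1 lower in each comparison with normal thymus. No macrophage marker was called in either comparison with normal thymus. The ratio of the 3′ to the 5′ control probe set of Actb, a sign of RNA quality, was 1.63 to 1.91 in normal thymus, 1.91 to 3.16 in tumor and 1.96 to 2.64 in resistant tumor. In whole tissue, fewer cells of a type and less RNA per cell cannot be told apart, and the part of these shifts in the results below was not tested.

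Mitosis genes differed little between normal thymus and the tumors, and their summed signal in the deposited scaling was slightly lower in tumor, a direction that depends on the scaling as given below. The sum over the 33 genes was 24615 to 26206 in normal thymus, 22879 to 24357 in tumor and 21720 to 24686 in resistant tumor. In tumor against normal thymus, 3 of 33 members were called higher and 5 lower, 8 in all, where 42.4% of all genes tested were called (23.3% higher and 19.1% lower). Mybl2, Melk and Aurkb rose, and Ndc80, Cenpe, Mad2l1, Nek2 and Cdc20 fell. No called change reached 2-fold. The arrays of the 2 groups did not overlap for 13 of 33 members, 4 higher and 9 lower, where 55.3% of all genes had no overlap. The 95% intervals of all 33 differences lay within a 2-fold change in either direction, as did those of 50.8% of all genes, and the interval ends ran from -0.91 to 0.89 on the log2 scale. The median absolute log2 difference was 0.19 over the members and 0.46 over all genes, beside a median standard error of 0.13 for the members and 0.20 for all genes.

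In resistant tumor against normal thymus, 2 of 33 members were called higher and 5 lower, where 43.3% of all genes tested were called (23.1% higher and 20.2% lower). Mybl2 and Melk rose, and Nek2, Aurka, Ndc80, Cdc20 and Cenpe fell. The groups did not overlap for 10 of 33 members, 3 higher and 7 lower, where 54.6% of all genes had no overlap. The 95% interval lay within 2-fold for 32 of 33 members and for 50.7% of all genes. The exception was Mybl2, whose interval reached 1.15 on the log2 scale. This comparison uses the same 3 normal arrays as the one before, so the pair are not independent of each other, and the values of both are given side by side below.

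**Figure D2:**
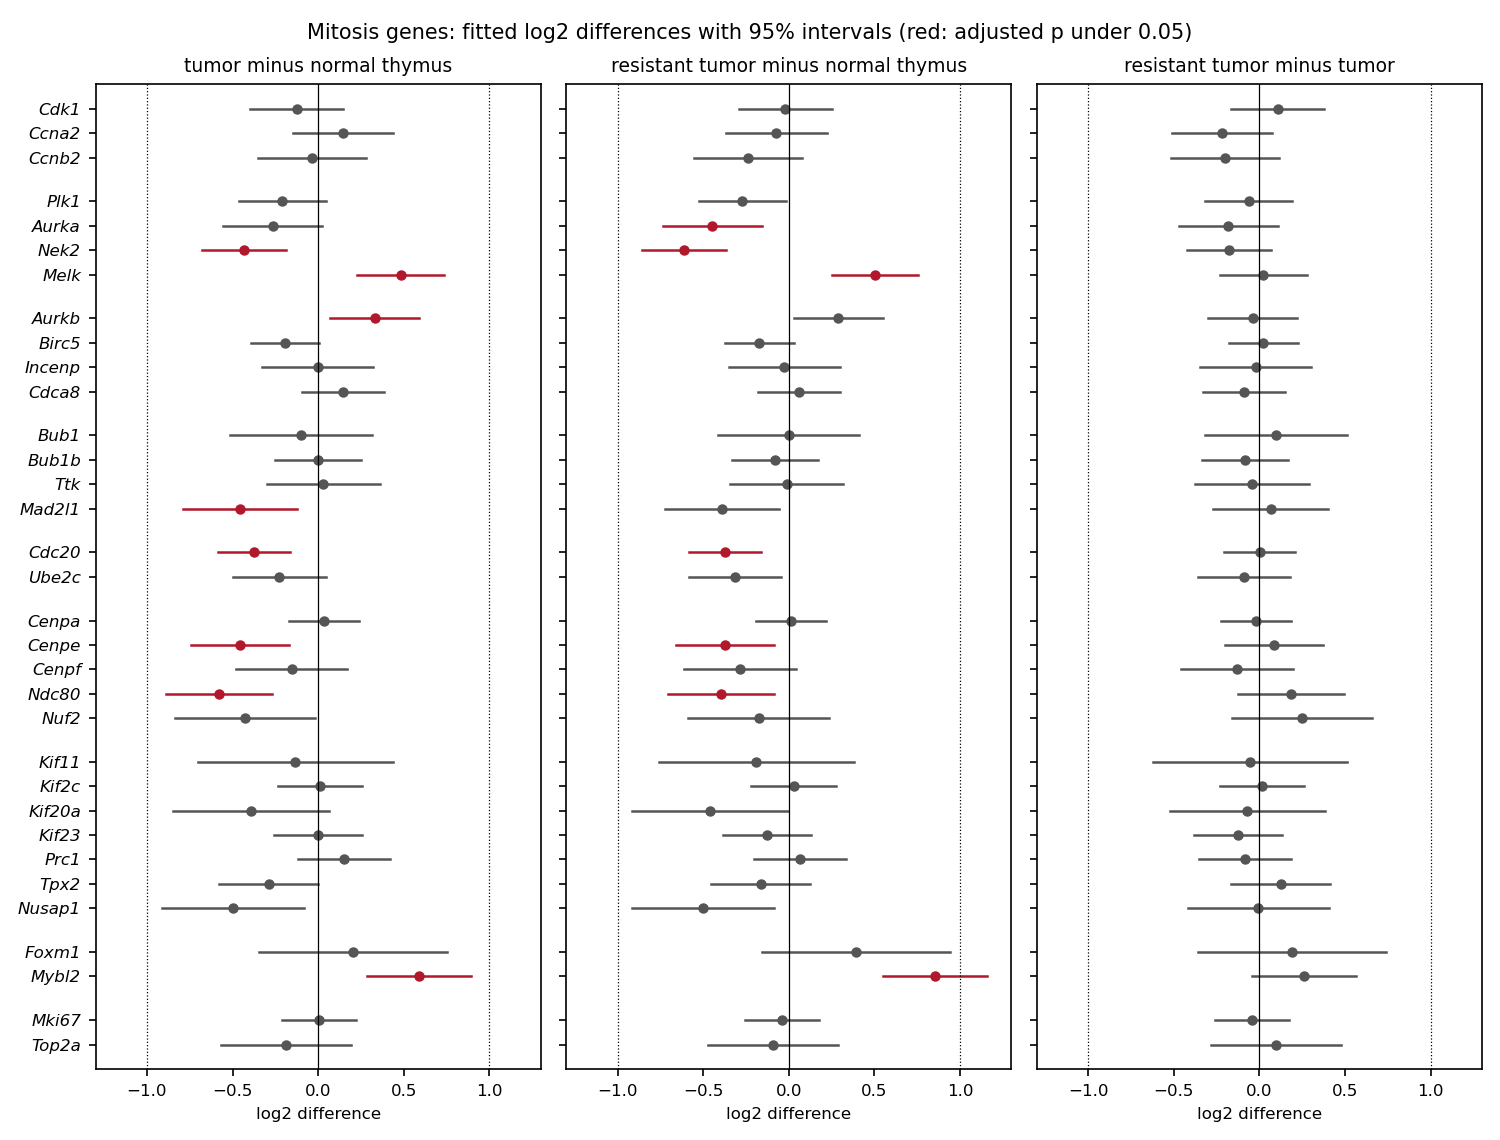
Fitted log2 differences of the 33 mitosis genes in the 3 comparisons (horizontal axis, log2 units), with 95% intervals as bars; rows are genes ordered by role, dotted lines mark a 2-fold change and red marks an adjusted p under 0.05. There are 8 red genes in tumor against normal thymus, 7 in resistant tumor against normal thymus and 0 in resistant tumor against tumor, and only the interval of Mybl2 in the middle panel crosses a 2-fold line.

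By their brightest probe sets, the cyclins and their kinase did not pass the test in any comparison. A second probe set of Ccna2 was called in resistant tumor, as given below. Cdk1, the kinase that drives entry into mitosis, had signals of 870.0, 869 and 902 in normal thymus, 883, 754 and 788 in tumor, and 969.7, 928 and 727 in resistant tumor. The 3 groups overlapped. Its log2 difference from normal thymus was -0.13 in tumor (95% interval -0.40 to 0.15) and -0.02 in resistant tumor (-0.29 to 0.25). Ccna2 and Ccnb2, the A-type and B-type cyclins measured here, differed from normal thymus by 0.14 and -0.04 in tumor and by -0.07 and -0.24 in resistant tumor.

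The 4 mitotic kinases went different ways. Melk, a serine/threonine kinase abundant in dividing cells, had signals of 197, 203 and 211 in normal thymus, 281, 306 and 268 in tumor, and 282, 268 and 319 in resistant tumor. All 6 tumor arrays of both kinds lay above the 3 normal ones. The rise was 0.48 ± 0.11 (log2 difference ± standard error, n = 3 against 3; limma adjusted p = 0.00705) in tumor, a 1.40-fold change, and 0.50 ± 0.11 (adjusted p = 0.00563) in resistant tumor, 1.42-fold. Nek2, a kinase that helps separate the centrosomes, had signals of 405, 493 and 445 in normal thymus, 335, 331 and 324 in tumor, and 306, 271 and 302 in resistant tumor. The tumor arrays all lay below the normal ones, and the resistant tumor arrays below both. Nek2 was 1.35-fold lower in tumor (-0.44 ± 0.11, adjusted p = 0.00996) and 1.53-fold lower in resistant tumor (-0.61 ± 0.11, adjusted p = 0.00171).

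Aurka, the kinase of centrosomes and spindle poles, had signals of 317, 401 and 417 in normal thymus, 296, 314 and 328 in tumor, and 262, 268 and 298 in resistant tumor. The resistant tumor arrays lay below all normal arrays, while the tumor arrays overlapped them. It was called lower in resistant tumor (-0.45 ± 0.13, limma adjusted p = 0.0191), and in tumor the difference was -0.27 ± 0.13 (adjusted p = 0.126). A dimmer Aurka probe set moved the other way, as given below. Plk1, the Polo kinase, differed by -0.21 in tumor (adjusted p = 0.168) and by -0.27 in resistant tumor (adjusted p = 0.0796) and was not called.

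Within the chromosomal passenger complex, which corrects faulty chromosome attachments, Aurkb was called in tumor and missed the threshold in resistant tumor. This catalytic kinase had signals of 275, 341 and 311 in normal thymus, 409.9, 369 and 382 in tumor, and 405, 355 and 371 in resistant tumor. Every tumor array of both kinds was above every normal array. The log2 difference was 0.33 ± 0.12 in tumor (limma adjusted p = 0.0434) and 0.29 ± 0.12 in resistant tumor (adjusted p = 0.0678), and whether the 2 differ is tested by the comparison of the tumors below, where Aurkb was not called (-0.04 ± 0.12, adjusted p = 0.941). Its partners Birc5 (survivin), Incenp (the scaffold) and Cdca8 (borealin) differed from normal thymus by -0.19, -0.00 and 0.14 in tumor and by -0.17, -0.03 and 0.06 in resistant tumor, with no call.

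Of the 4 spindle checkpoint genes, whose products hold back chromosome separation until every kinetochore is attached, Mad2l1 was called. Its signals were 792, 837 and 910.5 in normal thymus, 684, 574 and 597 in tumor, and 795, 639.8 and 528 in resistant tumor. All tumor arrays were below the normal ones, whereas resistant tumor 1 lay within the normal range. Mad2l1 fell by 0.46 ± 0.15 on the log2 scale in tumor (limma adjusted p = 0.0328), and its difference in resistant tumor was -0.39 ± 0.15 (adjusted p = 0.0587). Bub1, Bub1b and Ttk are the kinases and pseudokinase of the checkpoint. By their brightest probe sets they differed from normal thymus by -0.10 to 0.03 in tumor and -0.08 to -0.00 in resistant tumor. A dimmer Bub1 probe set was higher in the tumors, as given below.

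Cdc20 activates the anaphase-promoting complex. Its signals were 1726, 1603 and 1748 in normal thymus, 1279, 1415 and 1224 in tumor, and 1265, 1243 and 1415 in resistant tumor, so that no tumor array of either kind reached the lowest normal array. It was 1.30-fold lower in both, with log2 differences of -0.38 ± 0.09 (limma adjusted p = 0.00922) and -0.37 ± 0.09 (adjusted p = 0.00959). Ube2c, the ubiquitin-conjugating enzyme of the same complex, differed by -0.23 in tumor (adjusted p = 0.16) and -0.31 in resistant tumor (adjusted p = 0.0592).

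Of the 5 centromere and kinetochore genes, 2 fell in each comparison with normal thymus. Ndc80, the microtubule-binding subunit of the outer kinetochore, had signals of 160.5, 170.1 and 169 in normal thymus, 118, 101 and 116 in tumor, and 134, 139 and 109 in resistant tumor. It was the member with the largest fall in tumor, 1.49-fold (-0.58 ± 0.14, limma adjusted p = 0.00758), and was 1.31-fold lower in resistant tumor (-0.39 ± 0.14, adjusted p = 0.0424). Cenpe, a kinesin that moves chromosomes to the spindle equator, had signals of 366, 384 and 396 in normal thymus, 259, 318 and 263 in tumor, and 323, 309 and 259 in resistant tumor. For both genes every tumor array of either kind was below every normal array. Cenpe differed by -0.46 ± 0.13 in tumor (adjusted p = 0.0167) and -0.37 ± 0.13 in resistant tumor (adjusted p = 0.0404). Nuf2, the partner of Ndc80, differed by -0.43 in tumor (adjusted p = 0.0883) and -0.18 in resistant tumor, Cenpf by -0.16 and -0.29, and Cenpa, the histone variant of centromeres, by 0.03 and 0.01.

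None of the 7 spindle motors and assembly factors was called in any comparison. Nusap1, which bundles microtubules, came nearest, at -0.50 ± 0.18 in tumor (limma adjusted p = 0.0543) and -0.50 ± 0.18 in resistant tumor (adjusted p = 0.0515), and its signals of 962, 929 and 964 in normal thymus lay above all of 801, 629.7 and 608 in tumor and 869, 692 and 505 in resistant tumor. Kif11, Kif2c, Kif20a, Kif23, Prc1 and Tpx2, the motors and bundling proteins of the spindle and midzone, ranged from -0.39 (Kif20a) to 0.15 (Prc1) in tumor and from -0.46 (Kif20a) to 0.07 (Prc1) in resistant tumor.

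The member with the largest increase encodes a transcription regulator. Mybl2 (B-Myb), which joins the MuvB proteins to switch on genes of G2 and mitosis, had signals of 110.4, 100.4 and 106 in normal thymus, 165, 179.8 and 134 in tumor, and 186, 196 and 188 in resistant tumor. The tumor arrays lay above the normal ones and the resistant tumor arrays above both. It rose 1.50-fold in tumor (0.59 ± 0.14, limma adjusted p = 0.00639) and 1.80-fold in resistant tumor (0.85 ± 0.14, adjusted p = 0.000848). Foxm1, a forkhead factor that acts on the same class of genes, had signals of 124, 93.8 and 89.9 in normal thymus, 155, 119 and 87.0 in tumor, and 154, 150.1 and 103 in resistant tumor. These overlapped, and its differences of 0.20 ± 0.24 (adjusted p = 0.549) and 0.39 ± 0.24 (adjusted p = 0.225) were not called.

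Mki67 and Top2a, the antigen Ki-67 and topoisomerase II alpha that are most used to mark proliferating cells, were not called. Mki67 had signals of 2364, 1952 and 2065 in normal thymus, 1985, 2281 and 2121 in tumor, and 2132, 2093 and 1966 in resistant tumor. The 3 groups covered the same range. Its log2 difference from normal thymus was 0.00 in tumor (95% interval -0.21 to 0.22) and -0.04 in resistant tumor (-0.25 to 0.17). Top2a had signals of 2585, 2009 and 2238 in normal thymus, 2134, 1979 and 1854 in tumor, and 2574, 2328 and 1598 in resistant tumor, with differences of -0.19 (-0.57 to 0.19) and -0.09 (-0.47 to 0.29). A dimmer Top2a probe set moved the other way, as given below.

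**Figure D3:**
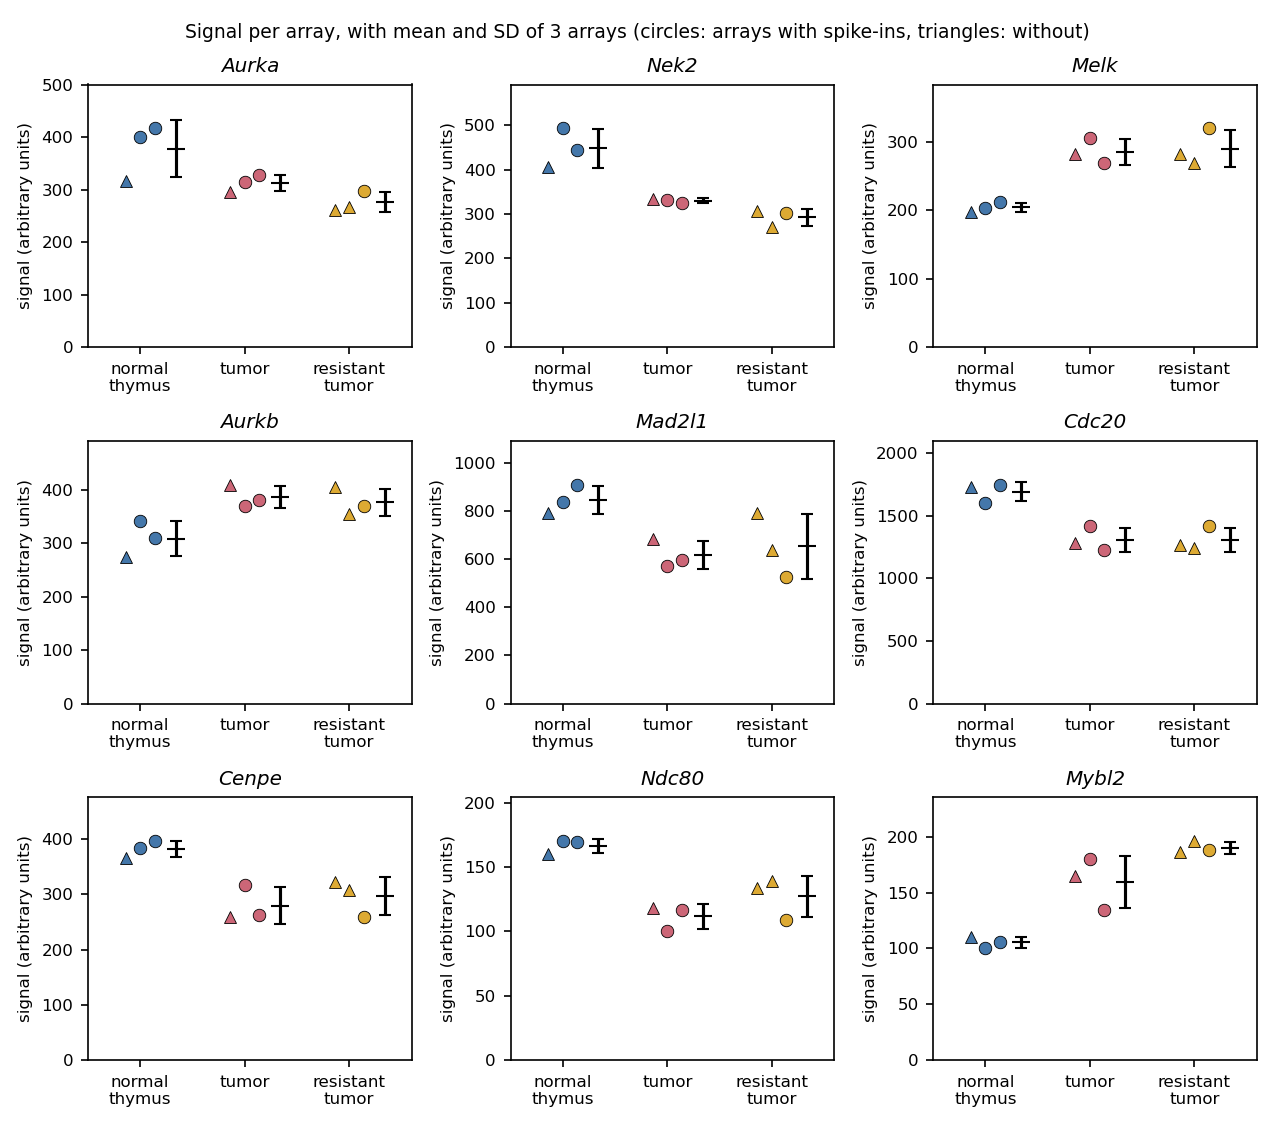
MAS5 signal per array (vertical axes, arbitrary units, starting at 0) of the 9 mitosis genes called in at least 1 comparison with normal thymus, with the mean and SD of the 3 arrays of a group as black bars; circles are arrays with spike-ins and triangles arrays without. Mybl2, Melk and Aurkb sit higher in the tumors and Nek2, Cdc20, Cenpe and Ndc80 lower, with no overlap between normal thymus and either tumor group, while Aurka overlaps in tumor and Mad2l1 in resistant tumor.

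The direction of a typical member depended on the scaling. The median log2 difference from normal thymus was -0.13 in tumor and -0.13 in resistant tumor over the 33 members, with 12 and 8 estimates above 0, beside 0.05 and 0.06 over all genes tested. With every array scaled to the same median the members' median was 0.06 in tumor and -0.19 in resistant tumor, because that scaling moved the median of all genes to 0.24 and 0.00. Relative to the median of all genes the members' median was -0.18 and -0.19. Both scalings must give these same values, since equal medians shift all genes of an array by the same amount. With the mean over probe sets the relative median was -0.08 in tumor and -0.05 in resistant tumor. Array by array, the members' median against the normal mean was -0.15, -0.13 and -0.16 in tumor 1, 2 and 3 and -0.01, -0.12 and -0.26 in resistant tumor 1, 2 and 3, so resistant tumor 1 stood near normal thymus and resistant tumor 3 lowest.

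The spike-in sets and single arrays bore on how many members were called. In a fit that blocked on spike-in set, 13 members were called in tumor (3 higher and 10 lower, where 58.7% of all genes were called, 32.6% higher and 26.1% lower) and 12 in resistant tumor (3 higher and 9 lower, where 58.8% of all genes were called, 32% higher and 26.8% lower). The groups of all 8 and all 7 called members did not overlap, which by itself gives the same sign within both sets of arrays. Of all 33 members, 21 in tumor and 25 in resistant tumor had the same sign within both sets. With equal array medians no member was called in either comparison, while 19.6% and 17.4% of all genes still were. Without normal thymus 2, normal thymus 3 or tumor 3 the count in tumor was 5, and without normal thymus 2 or 3 the count in resistant tumor was 4. The share of all genes called without those arrays is not given here. Among the members called in tumor, Aurkb, Mad2l1, Cenpe and Nek2 lost the call on leaving out at least 1 array, and Mybl2, Melk, Ndc80 and Cdc20 did not. In resistant tumor, Aurka, Cenpe and Ndc80 lost it and Mybl2, Melk, Nek2 and Cdc20 did not.

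In resistant tumor against tumor, 0 of 33 members were called by limma, where 0.36% of all genes tested were called. An unadjusted limma p under 0.05 was found for 0 members and for 844 of all 11671 genes. The smallest adjusted p was 0.748. The 95% intervals of all 33 differences lay within 2-fold, running from -0.62 to 0.74 at their ends, as did 74.8% of those of all genes. The largest difference was that of Mybl2, at 0.26 ± 0.14 (95% interval -0.04 to 0.57), and the members' median was -0.02, the same as over all genes. The groups did not overlap for Mybl2, which was higher in resistant tumor, and for Nek2, which was lower (-0.17, -0.42 to 0.07), where such a gap was seen for 10.4% of all genes. A p that misses the threshold does not show that the tumors were alike, and these intervals give the size of difference that the arrays leave room for.

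Most members were measured by more than 1 probe set, and these did not always move together. Of the 74 probe sets, 68 passed the filter, 22 members had at least 2 of them, and in 9 of the 22 the probe sets differed in sign between tumor and normal thymus. These were Ccna2, Aurka, Incenp, Bub1, Cenpf, Kif23, Prc1, Tpx2 and Top2a. Top2a probe set 1442454_at was higher by 0.22 in tumor and 0.21 in resistant tumor, and Bub1 probe set 1438571_at by 0.52 and 0.60. Neither was called. In a fit of all 34945 probe sets with 1 symbol, 10 of the 74 were called in tumor (5 higher and 5 lower, where 21% of all probe sets were called, 10.7% higher and 10.3% lower) and 11 in resistant tumor (6 higher and 5 lower, where 21.2% were called, 10.7% higher and 10.5% lower). In each comparison 1 of the called probe sets had not passed the filter. These were Incenp 1441314_at, lower in tumor, and Cenpa 1441864_x_at, higher in resistant tumor. Signals of different probe sets are not set against each other here, since each binds its target differently.

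The second Mybl2 probe set, 1454946_at, had signals of 23.2, 32.2 and 30.1 in normal thymus, 87.3, 103 and 92.0 in tumor, and 82.5, 98.6 and 125 in resistant tumor. It rose further than the brightest, by 1.73 ± 0.20 in tumor (limma adjusted p = 0.000574 over all probe sets) and 1.84 ± 0.20 in resistant tumor (adjusted p = 0.000438). Both Mybl2 probe sets were thus higher in every tumor array. For Aurka the second probe set, 1440129_at, had signals of 22.5, 11.4 and 11.8 in normal thymus, 44.3, 39.0 and 31.1 in tumor, and 33.7, 36.6 and 33.1 in resistant tumor. It rose in tumor (1.38 ± 0.31, adjusted p = 0.0155) and in resistant tumor (1.25 ± 0.31, adjusted p = 0.0239), against the fall of the brightest Aurka probe set. In normal thymus the second probe set lay below the array medians of 25.8, 17.8 and 17.0, so it passed the filter through the tumor arrays alone. The 2 probe sets of Aurka thus give opposite directions, and the rise is that of the dim one. A Foxm1 probe set that was not the brightest, 1417748_x_at, rose by 0.55 ± 0.14 in tumor (adjusted p = 0.0263) and 0.61 ± 0.14 in resistant tumor (adjusted p = 0.018), and the second Ccna2 probe set, 1417911_at, fell by 0.72 ± 0.20 in resistant tumor (adjusted p = 0.0383).

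Several dimmer probe sets followed the spike-in set rather than the tissue. Of the 68 that passed the filter, 9 probe sets of 7 genes were at least 1 log2 unit lower on the arrays with spike-ins than on those without. None was that much higher, and none of the 9 represented its gene. The array medians were also lower with spike-ins (13.9 to 17.8) than without (23.6 to 25.8). The share of all probe sets with such a difference is not given here, so this is not a trait particular to mitosis genes. Cenpe probe set 1439040_at is an example, with signals of 254, 193, 226 and 187 on the 4 arrays without spike-ins (normal thymus 1, tumor 1, resistant tumor 1 and 2) and 54.2, 42.0, 25.4, 31.0 and 33.6 on the other 5. Every array of the first kind was above every array of the second, in all 3 tissues. Among the 33 representative probe sets the same difference ran from -0.58 (Kif11) to 0.36 (Kif20a).

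**Figure D4:**
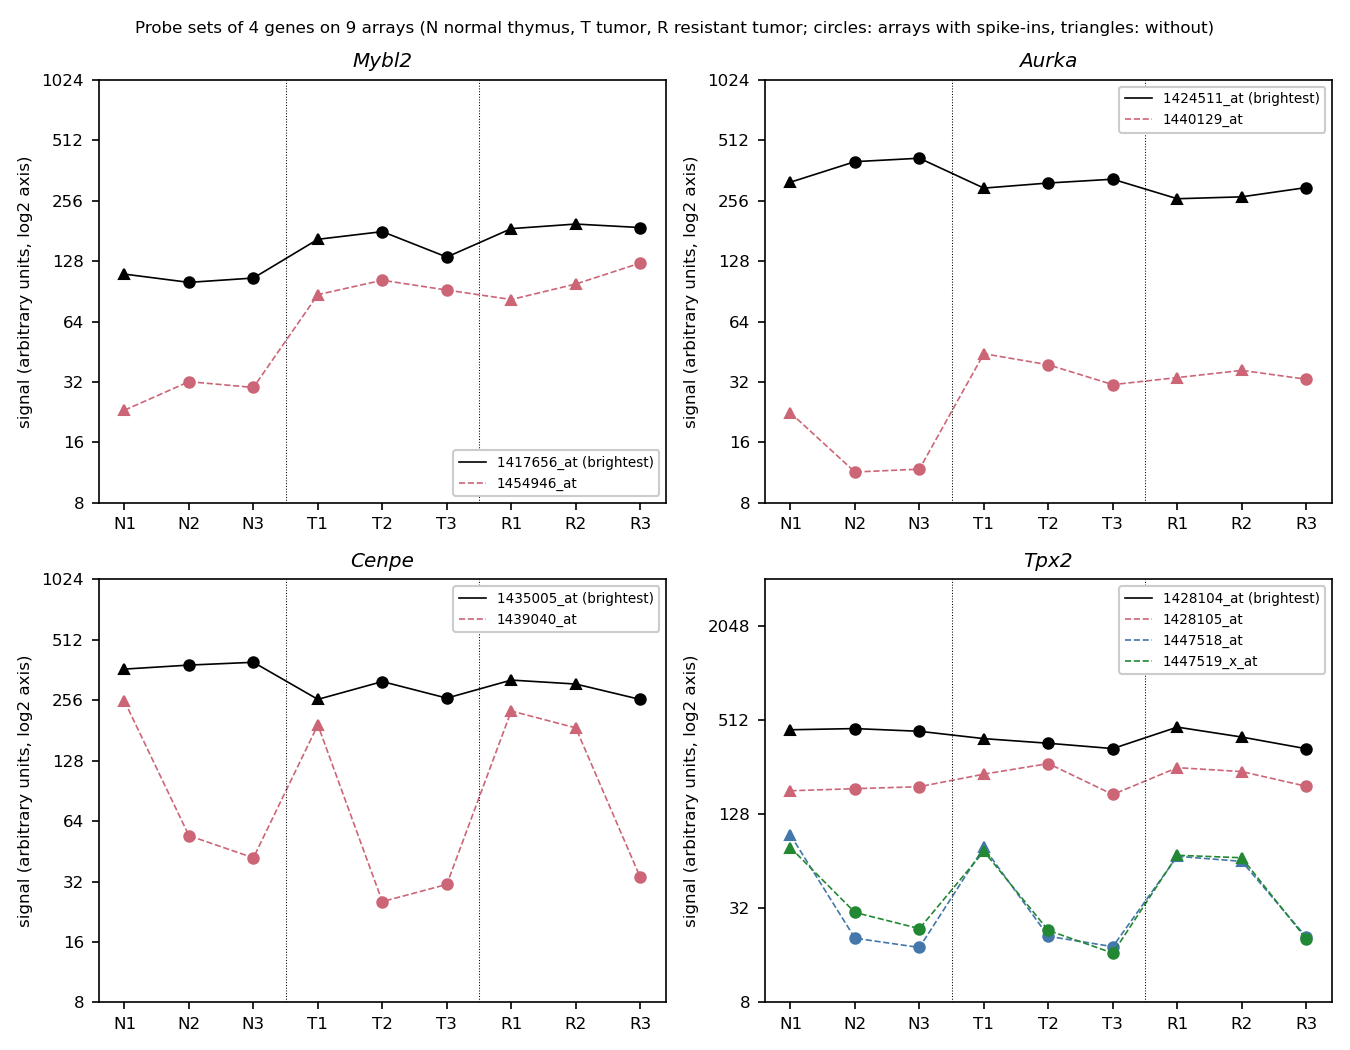
MAS5 signal (vertical axis, arbitrary units on a log2 scale) of every probe set past the filter for Mybl2, Aurka, Cenpe and Tpx2 on the 9 arrays (N normal thymus, T tumor, R resistant tumor, with the array number); black marks the brightest probe set, circles are arrays with spike-ins and triangles arrays without. Both Mybl2 probe sets are higher in the tumors, the 2 Aurka probe sets move in opposite directions, and the dimmer probe set of Cenpe and the 2 dimmest of Tpx2 separate the 2 kinds of array.

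Other mitotic genes, a list of 97 kept apart from the members, changed in both directions. Of 95 tested, 14 were called higher and 5 lower in tumor, and 17 higher and 7 lower in resistant tumor, with medians of 0.06 and 0.11. These are 14.7% higher and 5.26% lower in tumor and 17.9% and 7.37% in resistant tumor, below the shares of all genes tested in both directions. Cenpm, a subunit of the inner kinetochore, rose by 0.98 ± 0.24 in tumor (limma adjusted p = 0.00937) and 1.24 ± 0.24 in resistant tumor (adjusted p = 0.00276). Racgap1, needed for the cleavage furrow, rose by 0.79 ± 0.16 (adjusted p = 0.00298) and 1.02 ± 0.16 (adjusted p = 0.000727). Tacc3, a spindle protein, and Pbk, a mitotic kinase, rose in tumor by 0.87 ± 0.16 (adjusted p = 0.0016) and 0.80 ± 0.10 (adjusted p = 0.00016). Dlgap5, a spindle assembly factor, and Hmmr fell in tumor, with log2 differences of -0.83 ± 0.16 and -0.65 ± 0.20, and Mad1l1, the checkpoint partner of Mad2l1, fell in resistant tumor, with -1.18 ± 0.27. No gene of the list was called between the tumors.

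DNA replication genes act in S phase, before mitosis, and all of those called were higher in the tumors. Of 33 tested, 22 were called higher (66.7%) and 0 lower in tumor, where 23.3% of all genes tested were called higher and 19.1% lower. In resistant tumor 24 were called higher (72.7%) and 0 lower, where 23.1% of all genes were called higher and 20.2% lower. In the deposited scaling the medians were 0.60 and 0.64, beside the -0.13 and -0.13 of the mitosis genes. Tk1, thymidine kinase, rose by 1.22 ± 0.14 in tumor (limma adjusted p = 0.00011), and Gins2, a part of the replicative helicase, by 1.03 ± 0.15 (adjusted p = 0.000421). The corresponding rises in resistant tumor were 0.90 ± 0.14 and 1.13 ± 0.15. The difference between the lists itself was not tested.

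Regulators of the cell cycle were called in both directions. Of 22 genes in a list of cell cycle transcription regulators, 4 were called higher and 4 lower in tumor (18.2% each way) and 5 higher and 4 lower in resistant tumor (22.7% and 18.2%), near the shares of all genes tested. Rbl2 (p130) and E2f7, both known as repressors of cell cycle genes, fell, with log2 differences of -1.58 ± 0.16 (limma adjusted p = 5.19e-05) and -1.50 ± 0.26 in tumor and -1.75 ± 0.16 and -1.68 ± 0.26 in resistant tumor. E2f2 fell by 1.39 ± 0.21 in tumor, and E2f1 and E2f3 rose by 0.90 ± 0.22 and 0.77 ± 0.12. The largest rises of the list were those of Cdkn1a (p21), a CDK inhibitor, by 1.30 ± 0.39 in tumor and 1.75 ± 0.39 in resistant tumor, and of E2f6, a repressor, by 1.14 ± 0.17 and 1.29 ± 0.17. Of 12 G1 cyclins, their kinases and CDK inhibitors tested, 4 were called higher and 4 lower in each comparison with normal thymus (33.3% each way). Ccnd2 (cyclin D2) fell, with log2 differences of -1.77 ± 0.16 in tumor and -1.59 ± 0.16 in resistant tumor, and so did Cdkn2d (p19), with -1.19 ± 0.10 and -0.89 ± 0.10. Cdk6 rose by 0.87 ± 0.09 and 1.17 ± 0.09. The inhibitor Cdkn1c (p57) had the largest rise, 1.03 ± 0.33 and 2.41 ± 0.33, and the inhibitor Cdkn2c (p18) rose by 0.51 ± 0.09 and 0.39 ± 0.09.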

How the data were processed

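The authors deposited a linear intensity for each probe set on each array. MAS5 made these signals, per the submitters' processing notes, with a version, scaling target and detection calls not given in the sources used here. Signals were floored at 1 and converted to log2 without renormalization. Of 34945 probe sets with 1 symbol, 20917 reached the array median on at least 3 of 9 arrays, and the brightest by mean log2 signal stood for its gene. The 932 probe sets with several symbols, 9160 not listed and 64 controls were left out, among the first a probe set shared by Foxm1. One mean per group was fitted with limma 3.58.1 under R 4.3.3 (lmFit, eBayes with an intensity trend, 6 residual degrees of freedom, two-sided contrasts, Benjamini-Hochberg adjustment over all 11671 genes). Standard errors are limma's moderated ones, and intervals are 95%. The fit was tested on simulated data. The number of arrays limits the precision. Figures used matplotlib 3.10.9 under Python 3.11.15.

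The members and gene lists were chosen with earlier results of these data known. By the rule for named genes, values on every array are given for each called member and for Mki67, Top2a, Cdk1, Foxm1 and Mybl2 (Ccnb1 was not analysed here), and genes of other lists are among the up to 4 called ones with the largest difference in each direction. The signals of Nusap1 and the probe sets singled out were chosen after their values were seen. The 33 members matched RefSeq by gene identifier, and promoter sequences are RefSeq's on GRCm38.p6.

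Same-numbered arrays of tumor and normal thymus deviated together (correlations 0.69, 0.40 and 0.45), but tumor 2 and normal thymus 3 did so as well (0.47), and the labels name no shared animal or day. In the comparisons with resistant tumor the second pair correlated below 0 (-0.39 with normal thymus, -0.35 with tumor). Every correlation between arrays of the same spike-in set was above 0, and every other one was below 0, whatever the replicate numbers. The main fit paired no arrays in any comparison. The row order of the controls differed in tumor 1 (correlation with the other arrays -0.29 as deposited, 0.91 after sorting by name), and no test used them. Sorting came before arrays were split by spike-in level. Alternatives covered scaling (quantile normalization, equal array medians), an offset of 50 under the log, the filter (none, or the 75th percentile), a fit without intensity trend, the choice of probe sets (their mean, or all of them), blocks (replicate number, spike-in set), values within each spike-in set, and each array left out in turn.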

Additional observations from a re-analysis of the deposited data

How the results depend on the processing

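Counts of called mitosis genes in resistant tumor against tumor stayed at 0 under every alternative. In tumor against normal thymus the count of 8 became 0 with equal array medians, 5 with the mean over probe sets, 13 in a fit that blocked on spike-in set and 5 to 11 on leaving out 1 array. In resistant tumor against normal thymus the count of 7 became 0 with equal array medians, 12 in a fit that blocked on spike-in set and 4 to 9 on leaving out 1 array. With the replicate block the counts were 11, 12 and 0 in tumor and resistant tumor against normal thymus and between the tumors, and no call of a named member was lost. With that block 3324 of all 11671 genes were called higher and 2643 lower in tumor. In resistant tumor against normal thymus 3272 were called higher and 2813 lower, and between the tumors 31 and 61. For the mean over probe sets and the left-out arrays, the share of all genes called is not given here. Equal array medians moved the members' median log2 difference to 0.059 in tumor against normal thymus and -0.27 between the tumors. In resistant tumor against normal thymus it was 0.032 with the mean over probe sets. It was -0.30 within the arrays with spike-ins, where resistant tumor 3 is the only resistant tumor array. Within the arrays without spike-ins, where normal thymus 1 is the only normal array, it was -0.049. Leaving out 1 array gave medians of -0.14 to -0.08, -0.21 to -0.04 and -0.07 to 0.00 in the 3 comparisons. With the mean over probe sets Aurka turned to 0.56 in tumor and 0.40 in resistant tumor against normal thymus, and Cenpe to 0.032 in resistant tumor. For Aurka the dimmer probe set, below the array median in normal thymus, rose, and for Cenpe the dimmer one followed the spike-in set. The cause of the other shifts was not tested. Dim probe sets have the least certain values, since no detection calls were used.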
